A study of Homo sapiens with 18 samples.

Results

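The EGR transcription factors EGR1, EGR2, EGR3 and EGR4 and their corepressors NAB1 and NAB2 were followed in BxPC-3, an established human pancreatic adenocarcinoma cell line, after exposure to 1 of 2 related growth factors. The 6 genes were found by matching Ensembl identifiers to symbols, and they are 6 of the 58395 identifiers in the deposited gene count table. All 6 passed the filter on low counts and were among the 16794 genes tested. The groups were hepatocyte growth factor (HGF, 80 ng/ml, the ligand of the receptor kinase MET), macrophage-stimulating protein (MSP, 100 ng/ml, the ligand of the related kinase MST1R, also called RON) and phosphate-buffered saline as the vehicle, each at 1 h and at 4 h. Each of the 6 groups had 3 libraries, and the labels name no transgene or deletion. The cells were kept in RPMI with fetal bovine serum, and the labels do not say whether serum was withdrawn before treatment. Nor is it said that the 3 libraries of a group are separate cultures, so a p-value here reflects the spread of these libraries alone, and that spread may be technical. Values are CPM, counts scaled to a common library size, with TMM factors applied, and a gene is said to have risen or fallen where edgeR's quasi-likelihood test, Benjamini-Hochberg adjusted over the 16794 genes, gave an adjusted p below 0.05. An SE is that of the log2 fold change.

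EGR factors bind GC-rich DNA through zinc fingers. They are immediate-early genes, transcribed within minutes of growth factor stimulation without new protein synthesis, largely through the ERK kinases, which activate ternary complex factors such as ELK1 bound with SRF at CArG boxes. NAB1 and NAB2 carry no DNA-binding domain of their own. They bind EGR proteins and repress their activity, in part through the chromatin remodelling enzyme CHD4 and the NuRD complex, and NAB2 is itself known as a gene that EGR factors induce.

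Totals ran from 30556613 to 48477215 counts a library. The ductal epithelial markers KRT7, KRT8, KRT18, KRT19, EPCAM and CDH1 were all detected, with summed levels of 6231 to 6549 CPM in HGF 1 h, 5291 to 5643 CPM in MSP 1 h, 5096 to 5362 CPM in vehicle 1 h, 7135 to 7685 CPM in HGF 4 h, 5592 to 5918 CPM in MSP 4 h and 5538 to 5760 CPM in vehicle 4 h. Of 6 fibroblast markers 3 passed the filter, and the 6 summed to at most 18.6 CPM in any library. Of 6 leukocyte and endothelial markers 5 passed, and the 6 summed to between 4.23 and 4.84 CPM in HGF 4 h, against 8.56 to 9.51 CPM in vehicle 4 h. Mitochondrial genes held 6.17% ± 0.0530 of counts in HGF 4 h and 8.82% ± 0.142 in vehicle 4 h (SD, n = 3 each). The part of these markers and shares in the results was not tested. Scaling by library totals instead of TMM moved the median over all genes, as a log2 fold change, to -0.11 for HGF over vehicle at 1 h, -0.35 for HGF over vehicle at 4 h and -0.37 for HGF over MSP at 4 h, and calls of EGR1, NAB1 and NAB2 at 4 h are given below under both scalings.

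The sequences before the RefSeq starts of the members (build GRCh38.p14) are shown because several of them hold matches to the sites of SRF, CREB and EGR factors, the regulators described above and below. Of the 6 genes 5 were searched, with 9 windows of 250 bases. EGR3 was left out of the search and is named only, so nothing is said here of its motifs. Capitals mark CArG boxes, the cyclic AMP response element core CGTCA and the EGR sites GCGTGGGCG and GCGGGGGCG, searched on both strands, and pieces that GENCODE 29 places in an exon are not shown beyond 29 bases around an EGR site. EGR1 lies at chr5:138465490-138469315 on the plus strand in GENCODE 29 (GRCh38), and its window chr5:138465229-138465478 is upstream of the gene. EGR2 is on the minus strand, and its window chr10:62816367-62816616 is intronic to the longest EGR2 transcript. The EGR4 stretch chr2:73293706-73293798 on the minus strand is upstream of the gene. The NAB1 window chr2:190648645-190648894 on the plus strand is intronic to the longest NAB1 transcript. The second NAB1 stretch, chr2:190648898-190648926, and the NAB2 stretch, chr12:57089042-57089070, both on the plus strand, lie in a GENCODE exon of their gene.
EGR1: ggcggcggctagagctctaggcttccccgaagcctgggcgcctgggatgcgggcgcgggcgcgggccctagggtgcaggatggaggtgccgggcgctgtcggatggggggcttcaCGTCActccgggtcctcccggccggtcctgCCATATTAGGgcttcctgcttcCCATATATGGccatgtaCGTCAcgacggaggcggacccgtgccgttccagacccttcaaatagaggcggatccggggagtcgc
EGR2: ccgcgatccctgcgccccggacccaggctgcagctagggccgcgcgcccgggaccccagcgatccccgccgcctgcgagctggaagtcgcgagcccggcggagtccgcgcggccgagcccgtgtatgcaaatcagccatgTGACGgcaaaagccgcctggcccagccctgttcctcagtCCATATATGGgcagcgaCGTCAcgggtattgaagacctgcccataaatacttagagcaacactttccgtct
EGR4: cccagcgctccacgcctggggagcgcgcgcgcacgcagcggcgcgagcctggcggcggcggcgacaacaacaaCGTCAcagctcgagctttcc
NAB1: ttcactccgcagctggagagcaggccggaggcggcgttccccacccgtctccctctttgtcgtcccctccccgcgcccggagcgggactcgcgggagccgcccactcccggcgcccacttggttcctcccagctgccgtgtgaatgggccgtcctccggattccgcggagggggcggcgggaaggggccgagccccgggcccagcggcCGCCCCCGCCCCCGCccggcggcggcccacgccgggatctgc
NAB1, second window: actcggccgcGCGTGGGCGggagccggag
NAB2: tgtgcgtcctGCGGGGGCGgaggcgcgga

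The window of EGR1 held 2 CArG boxes, at 105 to 96 and at 83 to 74 bases before the start, and that of EGR2 held 1, at 71 to 62 bases before the start. No CArG box was in the EGR4, NAB1 or NAB2 windows, and 1.16% of all 35116 RefSeq windows of this length held one. Of the 250 bases, 157 in EGR4 and 220 in NAB2 lie in a GENCODE 29 exon, against 0 in EGR1. Less sequence upstream of EGR4 and NAB2 was thus searched. EGR1, EGR2 and EGR4 each held 2 copies of CGTCA and 2 of the NAB1 windows 1 each, where 21.2% of all windows hold it. The full element TGACGTCA, present in 1.65% of windows, was in none of the 9. Both NAB genes held GCGGGGGCG, which 4.72% of windows hold, NAB1 as 2 overlapping copies and NAB2 as 1. NAB1 also held GCGTGGGCG, found in 0.72% of windows, and no window of EGR1, EGR2 or EGR4 held either EGR site. The other windows of EGR2 held none of these motifs. A match is a description of letters, not a site or a cause.

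**Figure D1:**
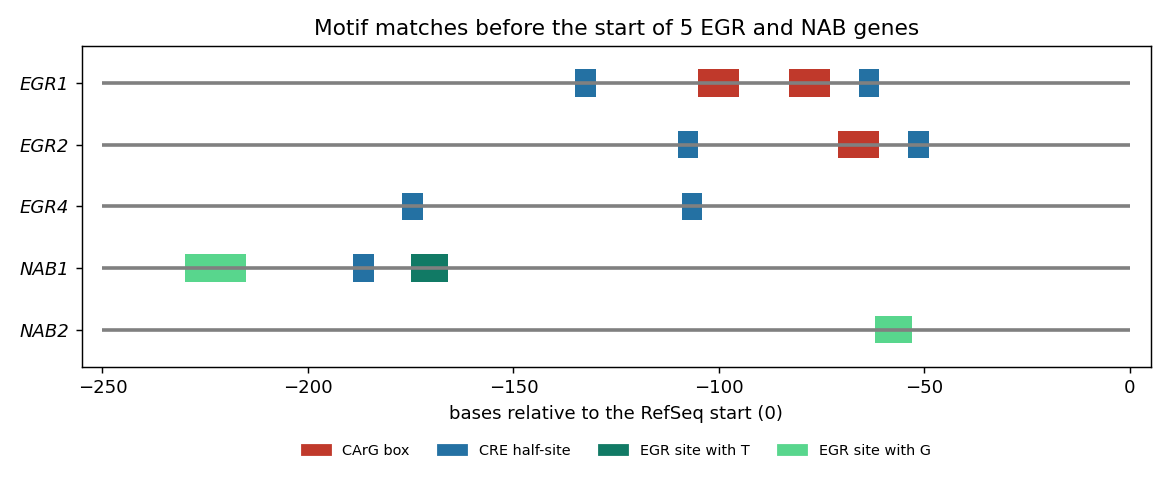
Motif matches in the 250 bases before the RefSeq start of 5 members (x axis, bases relative to the start at 0), with 1 line per gene and the second NAB1 window. Red blocks are CArG boxes, blue blocks are CGTCA, dark green GCGTGGGCG and light green GCGGGGGCG; the red blocks are in EGR1 and EGR2 and the green blocks in NAB1 and NAB2.

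At 1 h after HGF all 4 EGR genes stood far above vehicle and both NAB genes moderately above it. HGF raised the EGR genes between 15.1-fold and 66.2-fold, NAB2 by 1.89-fold and NAB1 by 1.41-fold. All 6 members rose, where 13.8% of the genes tested rose, and every HGF library was above every vehicle library for each of them. With library totals all 6 were higher as well, where 9.07% of all genes were, while the share of rises among all calls moved to 29.8% from the 65.8% obtained with TMM.

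EGR1, the founding member of the family, had 972, 1028 and 995 CPM in HGF 1 h, against 57.8, 71.7 and 69.2 CPM in vehicle 1 h. The groups lay far apart, with a log2 fold change of 3.91 (SE 0.0921, adjusted p = 6.80e-16). EGR2, the factor that controls myelination in Schwann cells, had 239, 262 and 250.5 CPM in HGF 1 h, against 3.60, 4.07 and 3.67 CPM in vehicle 1 h. Its vehicle counts were 140 to 167 reads and its HGF counts 7503 to 11537, a log2 fold change of 6.05 (SE 0.0799, adjusted p = 1.14e-31). This was the second largest log2 rise among the 16794 genes, ahead of EGR3 in the third place.

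EGR3, a factor with known roles in muscle spindle development and in T cells, had 734, 755 and 758 CPM in HGF 1 h, against 10.5, 12.6 and 11.4 CPM in vehicle 1 h. The log2 fold change was 6.02 (SE 0.0689, adjusted p = 2.01e-32), and the SD within HGF 1 h was 13.1 CPM on a mean of 749. An antisense transcript, AC055854.1, shares 164 exon bases with EGR3 and had 27 to 43 counts in HGF 1 h, against 1 to 5 in vehicle 1 h. Whether counting used strand is unknown here, so reads of the pair cannot be told apart, but EGR3 had 23055 to 34911 counts in the same HGF libraries. EGR4, the member with the lowest level in HGF 1 h, had 35.8, 29.1 and 32.0 CPM in HGF 1 h, against 1.47, 1.80 and 1.82 CPM in vehicle 1 h, a log2 fold change of 4.24 (SE 0.129, adjusted p = 2.56e-22).

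Of the corepressors, NAB2 had 82.2, 77.7 and 75.1 CPM in HGF 1 h, against 41.7, 43.2 and 39.4 CPM in vehicle 1 h, with a log2 fold change of 0.92 (SE 0.0477, adjusted p = 3.07e-16). NAB1 had 240.2, 262 and 264 CPM in HGF 1 h, against 187, 177 and 179 CPM in vehicle 1 h, with a log2 fold change of 0.50 (SE 0.0591, adjusted p = 2.37e-07). The HGF and vehicle libraries did not overlap for either gene. NAB2 shares 69 exon bases with STAT6 on the opposite strand, which had 6681 to 13267 counts over the libraries and a log2 fold change of 0.10 in this comparison (adjusted p = 0.0759 by edgeR). NAB1 overlaps the antisense transcript AC006460.1 and the divergent AC006460.2, with at most 95 counts in any library for AC006460.1 and 692 for AC006460.2.

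**Figure D2:**
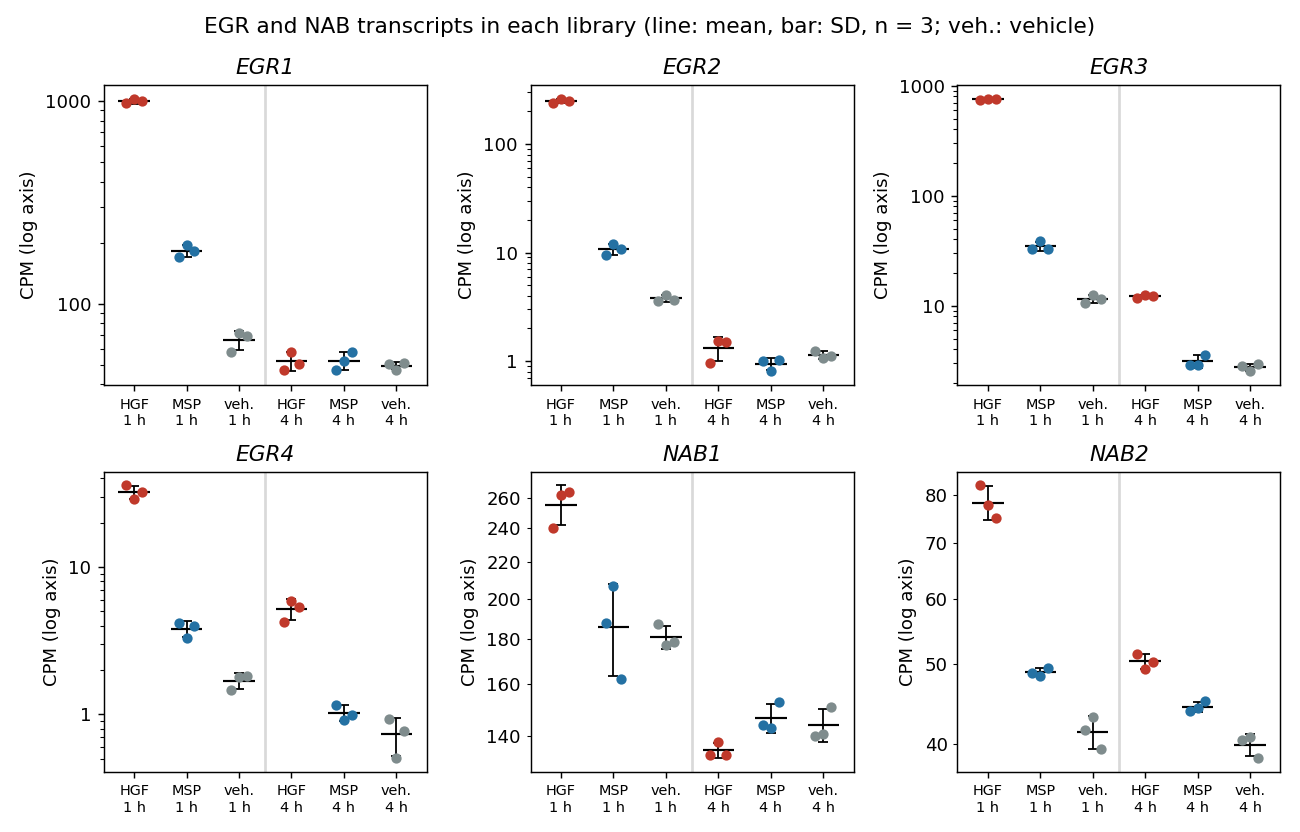
CPM of each member in each library (log axis, 1 panel per gene), with points for the 3 libraries of a group, a line for their mean and a bar for the SD. The HGF 1 h points are above all others in every panel, by a wide margin for EGR2 (239 to 262 CPM) and by a small one for NAB1 (240.2 to 264 CPM).

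MSP at 1 h raised the same 4 EGR genes, between 2.25-fold and 3.02-fold, and NAB2 by 1.18-fold, while NAB1 did not pass the test. These 5 of 6 members rose where 0.78% of all genes did. HGF and MSP were set against the same vehicle libraries. EGR1 had 169, 196 and 182 CPM in MSP 1 h, against the vehicle values of 57.8 to 71.7 CPM, with a log2 fold change of 1.46 (SE 0.0859, adjusted p = 1.20e-08). EGR2 had 9.50, 11.9 and 10.8 CPM in MSP 1 h, against 3.60 to 4.07 CPM in vehicle 1 h, a log2 fold change of 1.50 (SE 0.0898, adjusted p = 7.94e-13). For both genes the lowest MSP library was over 2 times the highest vehicle library.

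EGR3 had 32.6, 38.8 and 33.0 CPM in MSP 1 h, against 10.5 to 12.6 CPM in vehicle 1 h. Its log2 fold change was 1.59 (SE 0.0667, adjusted p = 2.25e-16), the ninth of 16794 from the top. EGR4 had 4.16, 3.31 and 3.99 CPM in MSP 1 h, against 1.47 to 1.82 CPM in vehicle 1 h, on 131 to 213 counts in MSP and 57 to 77 in vehicle. Its log2 fold change was 1.17 (SE 0.150, adjusted p = 4.60e-06), and the groups did not overlap.

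NAB2 had 48.8, 48.4 and 49.5 CPM in MSP 1 h, against 39.4 to 43.2 CPM in vehicle 1 h. The groups did not overlap, and the log2 fold change was 0.24 (SE 0.0480, adjusted p = 0.00528). This call was lost without vehicle 1 h replicate 3 (adjusted p = 0.106 by edgeR) and with only the MSP and vehicle libraries of 1 h in the fit (adjusted p = 0.146 by edgeR). NAB1 had 188, 207 and 162 CPM in MSP 1 h, against 177 to 187 CPM in vehicle 1 h. The MSP libraries lay on both sides of the vehicle libraries, with a log2 fold change of 0.04 (95% confidence interval -0.086 to 0.16, adjusted p = 0.922 by edgeR). MSP 1 h libraries 2 and 3, the highest and the lowest for NAB1, were also the pair of replicates that differed most over all genes, with a chi-square of 20.2 per degree of freedom, against at most 5.75 for pairs outside this group.

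Set directly against each other at 1 h, HGF gave higher levels than MSP for all 6 members, where 11.4% of all genes were higher. The share of higher genes among all calls was 64.1% with TMM and 29.4% with library totals, and all 6 members were higher with either. The ligands were used at different mass concentrations, 80 ng/ml of HGF and 100 ng/ml of MSP, so the values compare these treatments and not equal doses. EGR2 differed by 23.5-fold (log2 4.55, SE 0.0700, adjusted p = 1.00e-29) and EGR3 by 21.6-fold (log2 4.43, SE 0.0616, adjusted p = 5.68e-30). EGR4 differed by 8.40-fold (log2 3.07) and EGR1 by 5.48-fold (log2 2.45). NAB2 differed by 1.60-fold (log2 0.68) and NAB1 by 1.38-fold (log2 0.46), and for every member all 3 HGF libraries exceeded all 3 MSP libraries.

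By 4 h most of the EGR response was gone, and the 4 genes had separated. EGR3 and EGR4 were still above vehicle after HGF, by 4.40-fold and 7.08-fold, while EGR1 and EGR2 did not pass the test. NAB2 was 1.26-fold above vehicle, a call lost with library totals, and NAB1 did not pass the test. These 3 rises of 6 stand beside 33.1% of all genes tested that rose in this comparison. With library totals 2 members rose, where 21.2% of all genes did, and 2 fell, where 52.0% did, and the share of rises among all calls was 28.9%, against 48.7% with TMM.

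EGR4 had 4.26, 5.92 and 5.38 CPM in HGF 4 h, against 0.927, 0.505 and 0.766 CPM in vehicle 4 h. The vehicle values rest on 17 to 30 counts and the HGF values on 112 to 165. The log2 fold change was 2.82 (SE 0.185, adjusted p = 1.53e-14), and the lowest HGF library was over 4 times the highest vehicle library. EGR3 had 11.7, 12.5 and 12.3 CPM in HGF 4 h, against 2.84, 2.53 and 2.92 CPM in vehicle 4 h, with a log2 fold change of 2.14 (SE 0.102, adjusted p = 9.37e-18). With TMM its level in HGF 4 h overlapped that of vehicle 1 h, whose libraries ran from 10.5 to 12.6 CPM.

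EGR1 had 47.2, 58.1 and 50.5 CPM in HGF 4 h, against 50.2, 47.3 and 51.2 CPM in vehicle 4 h. The groups overlapped, with a log2 fold change of 0.068 (95% confidence interval -0.13 to 0.26, adjusted p = 0.531 by edgeR). With library totals EGR1 passed the test in the other direction, at a log2 fold change of -0.22 (adjusted p = 0.0407 by edgeR). EGR2 had 0.952, 1.53 and 1.50 CPM in HGF 4 h, on 25 to 46 counts, against 1.24, 1.07 and 1.11 CPM in vehicle 4 h, on 36 to 40 counts. The groups overlapped, and the log2 fold change of 0.23 had a 95% confidence interval of -0.16 to 0.62 (adjusted p = 0.284 by edgeR).

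NAB2 had 51.5, 49.4 and 50.3 CPM in HGF 4 h, against 40.5, 40.8 and 38.5 CPM in vehicle 4 h. The log2 fold change was 0.34 (SE 0.0497, adjusted p = 5.74e-07), and with library totals it was 0.046 (adjusted p = 0.416 by edgeR), so the call was lost with that scaling. STAT6, on the opposite strand, had a log2 fold change of 0.16 in the same comparison (adjusted p = 0.00115 by edgeR). NAB1 had 133.1, 138 and 133.3 CPM in HGF 4 h, against 139.9, 140.5 and 151 CPM in vehicle 4 h. Its log2 fold change was -0.094 (95% confidence interval -0.22 to 0.031, adjusted p = 0.172 by edgeR), although no HGF library reached a vehicle library. With library totals NAB1 fell, at -0.38 (adjusted p = 2.83e-06 by edgeR), and with only the HGF and vehicle libraries of 4 h in the fit it fell at -0.11 (adjusted p = 0.0168 by edgeR).

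At 4 h after MSP none of the 6 members passed the test by edgeR, where 1.07% of all genes did in either direction. At an unadjusted p below 0.05 there were 2, EGR4 and NAB2, and DESeq2 called 0. EGR4 had 1.17, 0.918 and 0.998 CPM in MSP 4 h, against 0.505 to 0.927 CPM in vehicle 4 h, with a log2 fold change of 0.50 (95% confidence interval 0.018 to 0.99, adjusted p = 0.391 by edgeR). NAB2 had 43.9, 44.2 and 45.1 CPM in MSP 4 h, against 38.5 to 40.8 CPM in vehicle 4 h, with a log2 fold change of 0.15 (95% confidence interval 0.054 to 0.25, adjusted p = 0.138 by edgeR). EGR1 had 47.3, 52.3 and 57.6 CPM in MSP 4 h and EGR3 had 2.90, 2.87 and 3.59 CPM, and both overlapped vehicle 4 h. EGR2 had 1.01, 0.803 and 1.02 CPM in MSP 4 h, on 28 to 46 counts, with a log2 fold change of -0.25 whose 95% confidence interval ran from -0.64 to 0.14. NAB1 had 144, 143 and 153 CPM in MSP 4 h, at a log2 fold change of 0.027.

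HGF and MSP at 4 h differed clearly for EGR3, by 3.91-fold (log2 1.97, SE 0.0966, adjusted p = 2.36e-17), and for EGR4, by 5.00-fold (log2 2.32, SE 0.167, adjusted p = 1.73e-13). For both genes every HGF library was above every MSP library. EGR2 and NAB2 were also called higher, making 4 of 6 where 32.7% of all genes were higher. The EGR2 call, at a log2 difference of 0.49 (adjusted p = 0.0277 by edgeR) with overlapping libraries, was lost without HGF 4 h replicate 2 (adjusted p = 0.130), without HGF 4 h replicate 3 (adjusted p = 0.143), without MSP 4 h replicate 2 (adjusted p = 0.101), with only these groups in the fit (adjusted p = 0.0916) and with library totals (adjusted p = 0.379), all by edgeR. The NAB2 difference of 0.18 (adjusted p = 0.00171 by edgeR) turned to -0.12 with library totals (adjusted p = 0.0349 by edgeR). EGR1, at -0.012, and NAB1, at -0.12 (adjusted p = 0.0805 by edgeR), did not pass the test. With library totals both were called lower, EGR1 at -0.31 (adjusted p = 0.00642 by edgeR) and NAB1 at -0.42 (adjusted p = 7.78e-07 by edgeR), so that 2 members were called higher, where 19.8% of all genes were, and 3 lower, where 53.4% were. The share of higher genes among all calls was then 27.0%, and it was 49.2% with TMM.

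**Figure D3:**
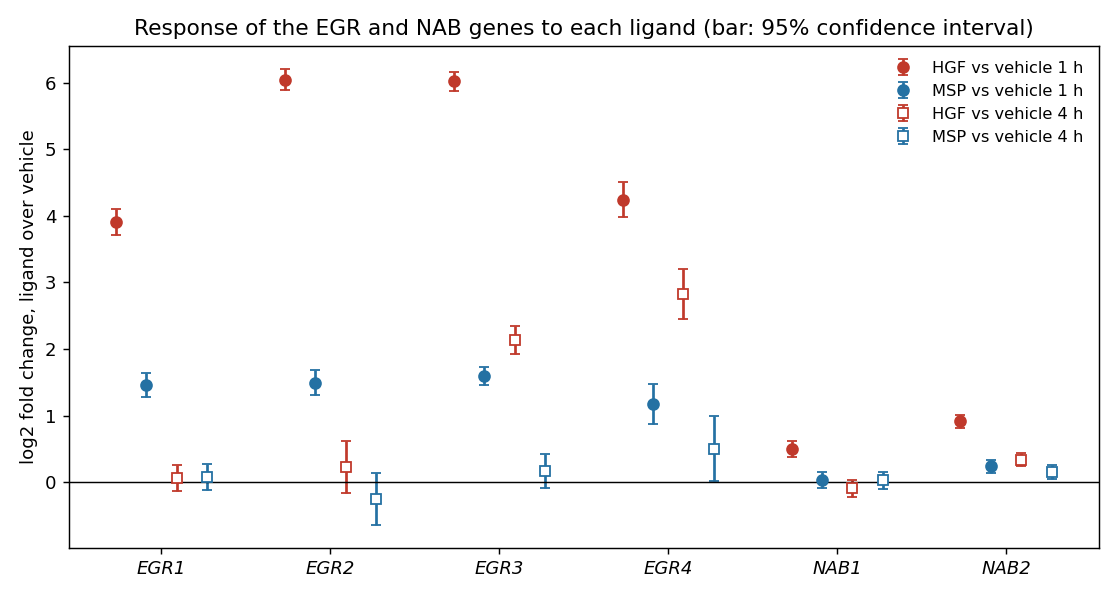
Log2 fold change of each member, ligand over vehicle (y axis), with 95% confidence intervals. Filled circles are 1 h, open squares 4 h, red is HGF and blue MSP. EGR2 and EGR3 stand near 6 at 1 h after HGF, and at 4 h EGR3 (2.14) and EGR4 (2.82) are the EGR genes whose HGF intervals lie above 0.

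The change of each ligand's effect between the times was tested as an interaction. The effect of HGF was smaller at 4 h than at 1 h for all 6 members, where 26.4% of all genes had a lower effect at 4 h. Higher effects at 4 h made up 50.3% of all calls with TMM and 32.9% with library totals, under which all 6 members were lower too. The log2 difference of effects was -5.82 for EGR2 (SE 0.237), -3.89 for EGR3 (SE 0.142), -3.85 for EGR1 (SE 0.127) and -1.42 for EGR4 (SE 0.263). The 95% confidence interval of EGR4, -1.96 to -0.88, did not reach those of the other EGR genes, the nearest of which was -4.12 to -3.58 for EGR1. For NAB1 and NAB2 the differences were -0.59 (SE 0.0846) and -0.58 (SE 0.0688). The effect of MSP was smaller at 4 h for EGR2, by a log2 difference of -1.75 (SE 0.215), for EGR3, by -1.42 (SE 0.143), and for EGR1, by -1.38 (SE 0.124). These 3 genes stand beside 0.274% of all genes with a lower MSP effect at 4 h. The MSP difference for EGR4 was -0.67 (95% confidence interval -1.26 to -0.085, adjusted p = 0.526 by edgeR), and for NAB2 it was -0.084 and for NAB1 -0.0093.

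EGR levels also fell with time in vehicle. Between 1 h and 4 h of vehicle all members except NAB2 fell, 5 of 6 where 9.99% of all genes did. EGR3 fell by 2.06 on the log2 scale (SE 0.0984, adjusted p = 2.85e-15), EGR2 by 1.73 (SE 0.143, adjusted p = 7.06e-10), EGR4 by 1.22 (SE 0.214, adjusted p = 1.56e-04), EGR1 by 0.42 (SE 0.0893, adjusted p = 0.00326) and NAB1 by 0.33 (SE 0.0597, adjusted p = 3.27e-04). The NAB2 change of -0.054 had a 95% confidence interval of -0.15 to 0.047 (adjusted p = 0.489 by edgeR). Between 1 h and 4 h of HGF all 6 fell, where 33.6% of genes did, and EGR2 had the largest log2 fall of the 16794 genes, -7.55 (SE 0.0968), or 187-fold. Between 1 h and 4 h of MSP all 6 fell, where 14.6% of genes did, and EGR2 and EGR3 had the largest and second largest log2 falls of all genes, both at -3.48. The NAB2 fall under MSP, at -0.14 (adjusted p = 0.0294 by edgeR), was lost when any of 5 libraries was left out, MSP 1 h replicates 1, 2 and 3 and MSP 4 h replicates 1 and 2 (adjusted p at most 0.0889 over all 6), with no filter on low counts (adjusted p = 0.0547) and with only these groups in the fit (adjusted p = 0.0546), all by edgeR. The share of rises among all calls in vehicle over time was 52.3% with TMM and 41.7% with library totals, and in HGF over time it was 48.7% with TMM and 32.6% with library totals.

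The order of the levels over the 6 groups, with TMM, differed between the genes. EGR1 was highest in HGF 1 h, then MSP 1 h, then vehicle 1 h, and the 3 groups of 4 h overlapped below these, apart from 1 HGF 4 h library at 58.1 CPM beside a vehicle 1 h library at 57.8 CPM. EGR2 followed the same order, with HGF 4 h overlapping both vehicle 4 h and MSP 4 h. In EGR3, HGF 4 h took the third place beside vehicle 1 h, with which it overlapped, and MSP 4 h overlapped vehicle 4 h. In EGR4, HGF 4 h stood second, at 5.19 ± 0.845 CPM, above the libraries of MSP 1 h at 3.82 ± 0.452 CPM (SD, n = 3 each). NAB1 in HGF 1 h (255 ± 13.2 CPM) was followed by MSP 1 h and vehicle 1 h, which overlapped, and HGF 4 h was lowest at 135 ± 2.71 CPM (SD, n = 3 each). NAB2 in HGF 1 h was followed by HGF 4 h and MSP 1 h, which overlapped. With library totals HGF 4 h stood lower in this order. NAB2 in HGF 4 h then lay below both MSP groups and overlapped the vehicle groups, EGR3 in HGF 4 h lay below vehicle 1 h, EGR1 in HGF 4 h lay below MSP 4 h and vehicle 4 h, and EGR4 in HGF 4 h overlapped MSP 1 h.

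Per kilobase of exon, EGR1 made up most of the summed level of the 4 EGR genes in every group. Its share was 57.4% ± 0.353 in HGF 1 h, 83.3% ± 0.287 in MSP 1 h and 83.7% ± 0.604 in vehicle 1 h. The share of EGR3 was 27.9% ± 0.356 in HGF 1 h, 10.3% ± 0.443 in MSP 1 h and 9.42% ± 0.386 in vehicle 1 h, and that of EGR2 was 12.3% ± 0.286 in HGF 1 h, 4.16% ± 0.171 in MSP 1 h and 4.08% ± 0.300 in vehicle 1 h. At 4 h EGR4 held 10.1% ± 0.773 after HGF, 2.42% ± 0.486 after MSP and 1.80% ± 0.466 in vehicle, while EGR1 held 76.6% ± 0.926 after HGF, 92.6% ± 0.811 after MSP and 93.0% ± 0.605 in vehicle (SD, n = 3 each throughout). The shares of EGR1, EGR2 and EGR3 at 1 h and of EGR1, EGR3 and EGR4 at 4 h did not overlap between the HGF and the vehicle libraries.

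The summed EGR level per kilobase was 7.08 ± 0.0566 times the summed NAB level in HGF 1 h, 1.29 ± 0.104 times in MSP 1 h and 0.497 ± 0.0626 times in vehicle 1 h. At 4 h it was 0.487 ± 0.0489 times in HGF, 0.403 ± 0.0274 times in MSP and 0.398 ± 0.0159 times in vehicle (SD, n = 3 each). At 1 h the 3 groups did not overlap. NAB2 over NAB1 per kilobase was 0.500 ± 0.0495 in HGF 1 h, 0.432 ± 0.0577 in MSP 1 h and 0.372 ± 0.0208 in vehicle 1 h, and 0.608 ± 0.0240 in HGF 4 h, 0.493 ± 0.0117 in MSP 4 h and 0.452 ± 0.0327 in vehicle 4 h (SD, n = 3 each). This ratio is taken within a library, so the scaling does not enter it. HGF 4 h libraries all lay above those of the other 5 groups.

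**Figure D4:**
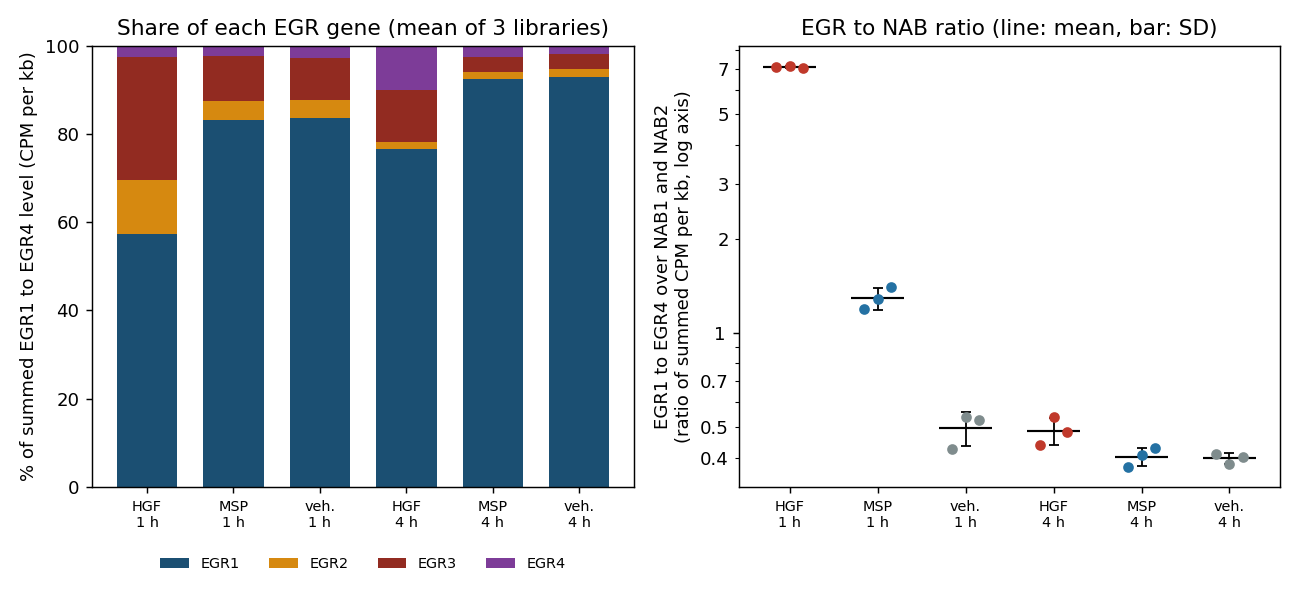
Left, share of EGR1, EGR2, EGR3 and EGR4 in their summed CPM per kilobase (y axis, %, mean of 3 libraries per group); right, summed EGR over summed NAB level (log axis) with points for libraries, a line for the mean and a bar for the SD. EGR1 takes 57.4% in HGF 1 h and 93.0% in vehicle 4 h, and the ratio is 7.08 in HGF 1 h and below 1 in vehicle 1 h and at 4 h.

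Genes outside the family with the nearest profiles were sought by the root mean square distance between the centred log2 CPM means of the 6 groups, among 12464 genes with a symbol and at least 1 CPM on average. EGR1, whose group means span 4.33 on the log2 scale, was nearest to NR4A3 (distance 0.461), FOS (0.510) and GDF15 (0.529). EGR2 was nearest to CCN2 (0.698), NR4A3 (0.841) and FOSB (1.00), and EGR3 to CCN2 (0.350), NR4A1 (0.765) and FOSB (0.772). EGR4 was nearest to HBEGF (0.286), LIF (0.380) and CSRNP1 (0.397). HBEGF, a ligand of the EGF receptor, had 554 ± 20.9 CPM in HGF 1 h, 118 ± 5.50 CPM in HGF 4 h and 23.3 ± 2.08 CPM in vehicle 4 h (SD, n = 3 each). Among the members, EGR2 and EGR3 were 0.622 apart, and EGR4 was nearest to EGR1, at 0.868. NAB1 and NAB2 spanned less than 1 on this scale and were not searched.

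Of 26 genes known as targets of EGR factors 21 were tested. This list and the lists below were chosen with earlier results of these data known. Their counts describe these genes and are no independent test of EGR activity. After HGF at 1 h 13 were higher, where 13.8% of all genes were, and 0 lower, where 7.16% were, with a median log2 fold change of 0.39, against -0.0041 over all genes. With library totals 11 were higher, where 9.07% of all genes were, and 5 lower, where 21.4% were. VEGFA, the angiogenic growth factor, had 926 ± 7.99 CPM in HGF 1 h and 186 ± 12.1 CPM in vehicle 1 h, a log2 fold change of 2.32. F3, which encodes tissue factor, had 2448 ± 53.4 CPM in HGF 1 h and 694 ± 21.7 CPM in vehicle 1 h, a log2 fold change of 1.82 (SD, n = 3 each). GDF15, a TGF-beta family cytokine, had a log2 fold change of 2.61 (SE 0.0727, adjusted p = 2.41e-23).

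After MSP at 1 h 5 of the 21 targets were higher, where 0.78% of all genes were, and 0 lower, with a median of 0.081, against 0.0077 over all genes. Among them were GDF15 (0.73), PDGFB (0.64), a platelet-derived growth factor chain, VEGFA (0.62) and F3 (0.35). After HGF at 4 h 10 targets were higher, where 33.1% of all genes were, and 9 lower, where 34.8% were, with a median of 0.40, against -0.059 over all genes. This split is with TMM, and that of the targets with library totals, where 21.2% of all genes were higher and 52.0% lower, is not given here. PDGFB had 61.5 ± 3.75 CPM in HGF 4 h and 7.76 ± 0.655 CPM in vehicle 4 h, a log2 fold change of 2.99, and F3 reached 3891 ± 169 CPM in HGF 4 h, against 514 ± 44.1 CPM in vehicle 4 h, at 2.92 (SD, n = 3 each). VEGFA stood at 1.74, so PDGFB, F3 and VEGFA were above vehicle at 4 h after HGF, when EGR1 and EGR2 did not pass the test. After MSP at 4 h VEGFA was higher (0.21, adjusted p = 0.0270 by edgeR). TNFSF10 was lower after MSP as well (-0.34, adjusted p = 0.0176 by edgeR), against -3.26 after HGF. VEGFA shares exon bases with an antisense transcript that had at most 23 counts.

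**Figure D5:**
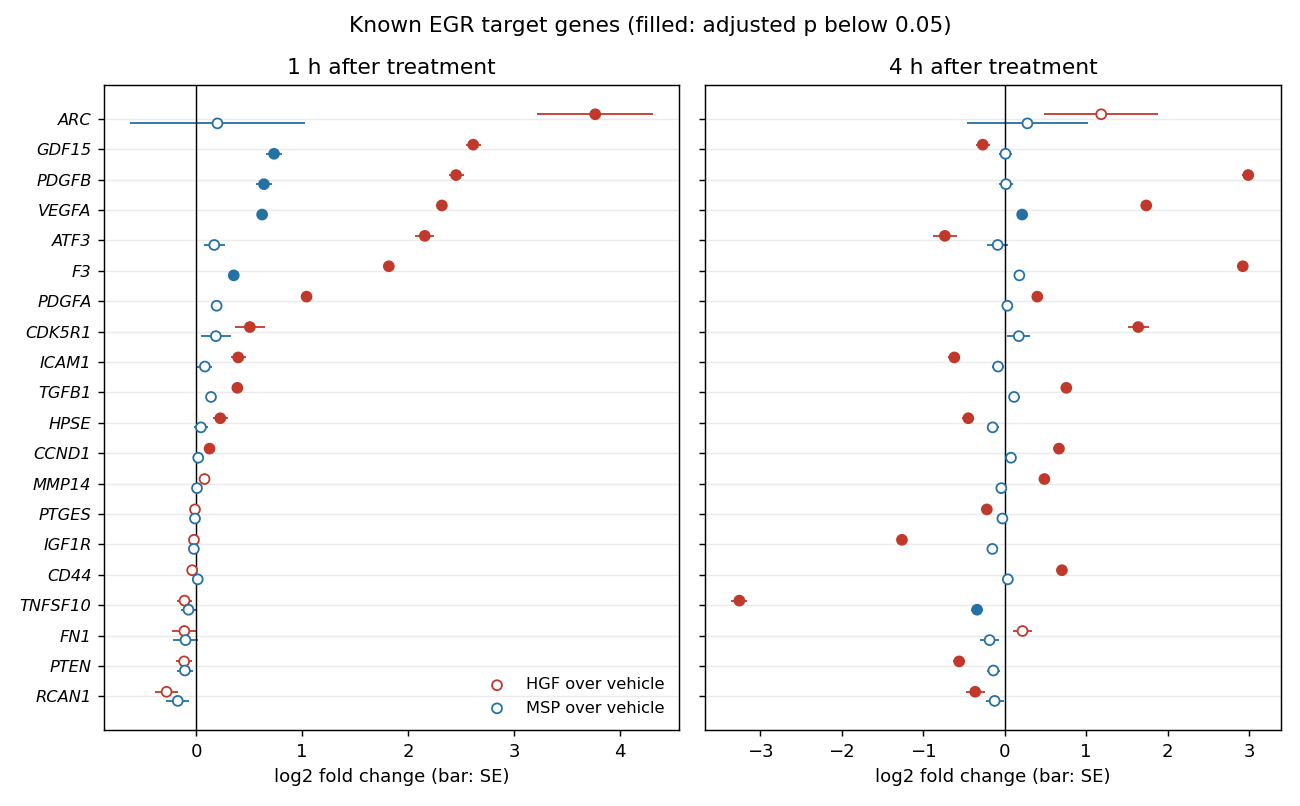
Log2 fold change over vehicle with its SE (x axis) of 20 tested EGR target genes (rows, ordered by the HGF value at 1 h), at 1 h on the left and 4 h on the right; red is HGF, blue MSP, and filled points passed the test. At 1 h 12 HGF points and 4 MSP points are filled, all above 0, and at 4 h the HGF points lie on both sides of 0.

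Among 18 genes of the ERK and SRF route that leads to EGR promoters, 3 were higher after HGF at 1 h, where 13.8% of all genes were, and 1 was lower, where 7.16% were. SRF itself, the factor that binds CArG boxes, had 180 ± 7.07 CPM in HGF 1 h and 83.2 ± 1.15 CPM in vehicle 1 h (SD, n = 3 each), a log2 fold change of 1.11 (SE 0.0415, adjusted p = 5.77e-20). The ternary complex factor ELK1 stood at 0.30 and the kinase RPS6KA4 at 0.29, and the SRF cofactor MRTFB was lower at -0.23. With library totals 3 were higher and 4 lower, where 9.07% and 21.4% of all genes were. SRF was also the only one of the 18 to pass the test after MSP at 1 h, where 0.78% of all genes were higher, at 0.17 (adjusted p = 0.0336 by edgeR). After HGF at 4 h 11 were higher, where 33.1% of all genes were, and 4 lower, where 34.8% were, with a median of 0.30, against -0.059 over all genes. These counts and the median are with TMM only. With library totals 21.2% of all genes were higher and 52.0% lower, and the split of the 18 is not given here. SRF was at 1.17, MAP2K1, the kinase upstream of ERK, at 1.18, RPS6KA4 at 1.41 and RPS6KA1 at 0.88. MAP2K1 shares exon bases with SNAPC5 on the opposite strand, which had 289 to 730 counts. After MSP at 4 h 0 of the 18 passed the test by edgeR.

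Of the 13 genes of the NuRD complex, 2 were higher after HGF at 1 h and 1 was lower, near the shares of all genes that were higher (13.8%) and lower (7.16%). They were MTA2 at 0.24, GATAD2A at 0.18 and GATAD2B at -0.20. With library totals 1 was higher, where 9.07% of all genes were, and 6 lower, where 21.4% were. After HGF at 4 h 7 were higher, where 33.1% of all genes were, and 4 lower, where 34.8% were. The median was 0.11, against -0.059 over all genes. Among the higher were GATAD2A at 1.08 and the histone deacetylase HDAC2 at 0.81. The 4 lower were GATAD2B at -0.59, MTA3 at -0.44, CHD3 at -0.26 and RBBP4 at -0.19. With library totals all 13 passed the test, 5 higher, where 21.2% of all genes were, and 8 lower, where 52.0% were. The helicase CHD4, named for its link to the NAB proteins, did not pass the test with TMM in either comparison. After MSP 0 of the 13 passed at 1 h or at 4 h by edgeR. Of 4 other zinc finger factors that bind GC-rich sites, 3 were tested, and SP1, SP3 and SP4 did not pass the test at 1 h after either ligand. At 4 h after HGF all 3 were lower, where 34.8% of all genes were and 52.0% with library totals, SP4 at -1.17, SP1 at -0.41 and SP3 at -0.25.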

How the data were processed

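RNA was sequenced from BxPC-3 cells in 18 libraries, 3 in each of 6 groups of ligand and time, and each library was run on 2 lanes that the deposited table had combined. The values are whole-number counts per gene as deposited by the authors, made with STAR and with featureCounts from Subread according to the submitters' processing notes, while the build, annotation and strand setting used were not given in the sources used here. Of 58395 identifiers 57754 were in a table of gene names and 41885 had a symbol.

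Genes were kept by filterByExpr (minimum count 10, minimum total 15), which left 16794; the rest took up to 0.0573% of the counts in a library. TMM scaling was applied, and the counts were fitted with edgeR 4.0.16 in R 4.3.3 (robust quasi-likelihood, 1 mean per group, residual df 12, biological coefficient of variation 5.23%), with Benjamini-Hochberg adjustment over all genes and a threshold of 0.05. An SE is the absolute log2 fold change divided by the square root of F. CPM use TMM-scaled totals, log2 CPM a prior count of 2, and levels per kilobase the exon length in GENCODE 29. The script for the fit was tested on simulated data in which a small set of genes changed in HGF 1 h alone. That test does not bear on the choice of scaling at 4 h. Replicate pairs were compared by chi-square over genes with at least 20 counts. Motifs were sought in RefSeq windows of GRCh38.p14.

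The 6 genes, the lists and the tests were chosen with earlier results of these data known. Named beside the 6 members are at most 4 called genes of each list a comparison, by smallest adjusted p, and the 3 genes with the nearest profile; the values of 1 EGR target are not reported here. Alternatives were library totals, DESeq2 1.42.0, no filter, only the groups compared, no robust estimation, a replicate block and leaving out each library. Intervals and counts cover counting and library spread only.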

Additional observations from a re-analysis of the deposited data

Results flagged for a closer look

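The effect of HGF differed between 4 h and 1 h, by the interaction test of edgeR, for all 6 members: the log2 difference was -3.85 for EGR1 (adjusted p = 5.18e-14), -5.82 for EGR2 (adjusted p = 9.87e-19), -3.89 for EGR3 (adjusted p = 1.31e-19), -1.42 for EGR4 (adjusted p = 3.14e-05), -0.59 for NAB1 (adjusted p = 1.45e-06) and -0.58 for NAB2 (adjusted p = 1.73e-08). The effect of MSP differed between the times for EGR1, at -1.38 (adjusted p = 1.25e-05), EGR2, at -1.75 (adjusted p = 1.15e-05), and EGR3, at -1.42 (adjusted p = 6.46e-07). In each of these the effect over vehicle was the lower one at 4 h.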

How the results depend on the processing

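Of 864 alternative values for single members, 825 kept their direction and their side of the threshold, and 19 changed direction, called or not. Of those that kept their direction, 15 lost a call and 5 gained one. Among the 19, EGR1 for HGF over vehicle and NAB2 for HGF over MSP, both at 4 h with library totals, were called in the new direction. With library totals the log2 fold change for HGF over vehicle at 4 h was -0.22 for EGR1 and -0.057 for EGR2, NAB2 for HGF over MSP at 4 h was -0.12, and the difference of MSP effects for NAB1 was 0.0064. That of NAB1 was 0.0048 with only the groups compared, and EGR1 for HGF over MSP at 4 h was 0.0069 with no filter and 0.017 with DESeq2. The cause was not tested.

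Leaving out each library in turn, NAB1 for MSP over vehicle ranged from -0.049 to 0.12 at 1 h and from -0.0045 to 0.065 at 4 h, EGR1 for HGF from -0.018 to 0.13 over vehicle and from -0.097 to 0.062 over MSP at 4 h, and NAB1 for the difference of MSP effects from -0.093 to 0.078. With library totals the HGF calls at 1 h numbered 7 for the NuRD genes, against 3, 7 for the ERK and SRF route, against 4, and 1 for the related zinc fingers, against 0. The EGR targets called for MSP at 4 h numbered 5 with DESeq2, 4 with no filter and 4 with a replicate block, against 2.

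Same-numbered libraries of different groups had correlations of their deviations of -0.065 to 0.12 over 45 pairs (median 0.031, 1 over 0.1). For other numbers they were -0.14 to 0.12 over 90 pairs (median -0.013, 2 over 0.1). Of 18 libraries 14 correlated best on average with their own number. The numbers were not taken as pairing the samples in the main fit, and whether they mark a shared batch was not tested. The replicate block left 92 of 93 results on the same side; the other was that of the EGR targets. EGR2 and EGR4 at 4 h rest on 17 to 53 counts a library outside EGR4 after HGF, which limits their precision.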
